A study of Mus musculus with 2 samples.

Results

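Glycolysis converts glucose to pyruvate. Lactate dehydrogenase and the monocarboxylate transporters then reduce pyruvate and carry the lactate out of the cell, and the pentose phosphate pathway branches off glucose 6-phosphate to supply NADPH and ribose for nucleotides. Pyruvate dehydrogenase kinases hold back the pyruvate dehydrogenase complex, which uses pyruvate inside mitochondria. As background, T cells that are activated and divide are known for high glucose uptake and lactate release even where oxygen is present, whereas resting T cells depend more on mitochondrial respiration.

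A set of 37 genes of these pathways was taken by symbol from a table of 24091 genes, and all 37 were in it. The table holds read counts from RNA-seq of 2 libraries of γδ T cells, the T lymphocytes with a γδ in place of an αβ antigen receptor, from mouse spleen. The first library is labelled freshly isolated. The other is labelled IL-2 expanded, and the protocol describes sorted cells stimulated through CD3 (antibody on the plate) and CD28 (soluble antibody) with interleukin 2 at 100 U/ml, for 5 days. The same protocol text stands with both libraries, and the freshly isolated one was taken as uncultured from its label. Strain, age and the number of mice pooled are not stated by the labels. Activation, culture and interleukin 2 therefore differ together between the libraries and cannot be told apart.

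There was 1 library per group. The differences below were not tested, as none can be set against replicates. Intervals in brackets are exact, at 95%, and reflect counting error alone. The total was 20379385 counts for freshly isolated and 22204099 counts for expanded cells. Levels are CPM, counts per 1000000 of the scaled library, in which 1 count equals 0.0465 and 0.0476 CPM. Levels of different genes were compared only as CPM per kilobase of the gene length deposited with the counts. The comparison took in the 11715 genes whose mean over the libraries reached 1 CPM. Most markers of other spleen cells were lower in expanded cells. Of 13 monocyte and macrophage markers, 11 were at least 2-fold lower and their summed level was 1099 CPM before and 84.1 CPM after expansion, with Lyz2, C1qa and C1qb at 0 counts in the latter. Markers of B cells and plasma cells were lower in 8 of 9 cases, with a sum of 1667 and 302 CPM (Xbp1, also used outside these cells, gave 294 of the latter) and with Cd79a, Ms4a1 and Pax5 at 0 counts. Among 6 T cell markers, 4 were under 2-fold apart (Cd3e at 734 and 688 CPM) and 2 were lower, Cd2 at 396 and 76.2 CPM and Cd5 at 132 and 4.42 CPM. The neutrophil marker Ly6g went the other way, from 0 to 374 counts, while the other 5 neutrophil markers had 0 counts in expanded cells. In such bulk libraries, fewer cells of a type and less RNA per cell cannot be told apart.

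Most enzymes of the main route from glucose to lactate and of the pentose phosphate branch were higher in expanded cells, and other isoforms of several steps were lower. Of the 37 genes, 36 reached a mean of 1 CPM, and Pdk4, a pyruvate dehydrogenase kinase, had 0 counts in both libraries, which allows up to 0.139 and 0.143 CPM (3 counts). At least 2-fold higher in expanded cells were 20 of the 36, against 22.4% of all genes compared. At least 2-fold lower were 8, against 25.0% of all genes, and 8 lay between. At 4-fold the counts were 9 higher (8.92% of all genes) and 4 lower (13.5%). On the log2 scale, the median difference (expanded over freshly isolated) of the 36 was 1.37, and that of all genes 0.04. Together the 37 genes took 0.287% of the counts in freshly isolated cells (0.285 to 0.290) and 0.879% in expanded cells (0.875 to 0.883). Aldoa, Pkm and Ldha made up much of this, with 0.0836% and 0.425% of all counts.

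**Figure D1:**
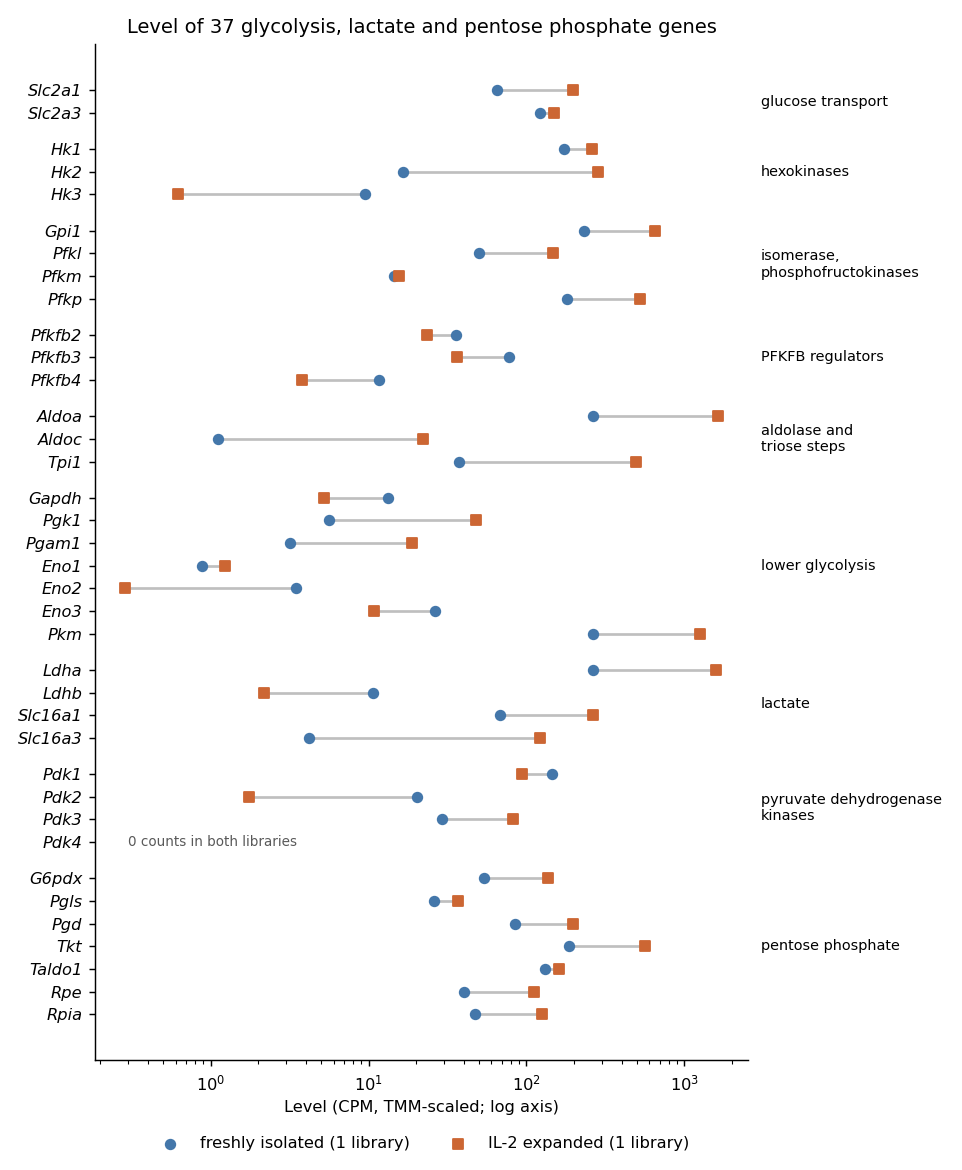
Level of each gene in CPM (log axis) in the freshly isolated (circles) and the IL-2 expanded library (squares), 1 library each, grouped by role. Aldoa, Ldha and Pkm reach 1642, 1586 and 1258 CPM in expanded cells, and Hk3, Eno2, Ldhb and Pdk2 lie to the left of their freshly isolated level.

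Sequences before the start site are shown for 5 genes whose levels differ strongly below. Of these, Pgk1 has an uncertain level and fold, as described below with the shared sequence. The letters ACGTG are the core of the element bound by hypoxia-inducible factors, and CACGTG is the E-box bound by MYC and related factors, which contains ACGTG. RefSeq windows of 250 bases before the start (build GRCm38.p6) held 2 or more matches on either strand in 4 genes of the set. These were Ldha, Hk2, Slc16a3 and Pgk1. All 4 were at least 2-fold higher in expanded cells, as were 22.4% of all genes compared. The share of higher genes among all genes with 2 or more matches was not computed. Of all 9194 genes with a window that reached a mean of 1 CPM, 3.69% held 2 or more matches. Pdk2 is shown beside them as a lower gene with an E-box in a window. Ldha and Pdk2 have 2 windows each, and the one not shown holds no match. Genes with several windows were counted by the window with the most matches. The windows are chr7:46845554-46845803 (plus strand) for Ldha, chr6:82774455-82774704 (minus) for Hk2, chr11:120948817-120949066 (plus) for Slc16a3, chrX:106186850-106187099 (plus) for Pgk1 and chr11:95041372-95041621 (minus) for Pdk2. Each is printed 5′ to 3′ on the strand of the gene, with the matches in capitals.
Ldha: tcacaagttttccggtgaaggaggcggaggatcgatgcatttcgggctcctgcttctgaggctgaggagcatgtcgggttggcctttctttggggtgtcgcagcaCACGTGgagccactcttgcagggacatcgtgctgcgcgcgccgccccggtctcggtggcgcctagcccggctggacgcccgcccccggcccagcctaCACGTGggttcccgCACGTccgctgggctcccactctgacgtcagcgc
Hk2: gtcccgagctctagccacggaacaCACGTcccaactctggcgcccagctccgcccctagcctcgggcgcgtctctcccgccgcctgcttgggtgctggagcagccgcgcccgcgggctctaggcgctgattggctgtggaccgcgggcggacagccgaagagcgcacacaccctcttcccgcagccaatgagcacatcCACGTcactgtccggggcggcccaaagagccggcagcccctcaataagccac
Slc16a3: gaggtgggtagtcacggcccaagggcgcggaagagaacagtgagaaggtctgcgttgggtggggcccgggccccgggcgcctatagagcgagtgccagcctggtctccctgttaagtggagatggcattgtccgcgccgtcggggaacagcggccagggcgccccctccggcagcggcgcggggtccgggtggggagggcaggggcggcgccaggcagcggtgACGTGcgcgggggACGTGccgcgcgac
Pgk1: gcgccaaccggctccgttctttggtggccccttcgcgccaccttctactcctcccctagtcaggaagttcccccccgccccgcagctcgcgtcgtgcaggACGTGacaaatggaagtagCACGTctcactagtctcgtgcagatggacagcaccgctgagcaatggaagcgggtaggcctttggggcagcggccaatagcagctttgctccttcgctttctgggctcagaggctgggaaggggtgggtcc
Pdk2: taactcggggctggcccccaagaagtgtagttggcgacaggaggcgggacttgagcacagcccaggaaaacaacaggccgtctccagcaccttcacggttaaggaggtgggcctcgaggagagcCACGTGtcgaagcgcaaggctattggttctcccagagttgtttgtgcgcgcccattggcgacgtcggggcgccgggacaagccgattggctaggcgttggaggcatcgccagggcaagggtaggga
Ldha has 3 matches, the pair of E-boxes at 145 and 48 bases before the start and a further core at 34 bases. In Slc16a3 the cores lie 27 and 14 bases before the RefSeq start, and the window lies inside the deposited span of the gene. RefSeq windows were found for 36 of the 37 genes. At least 1 match was present in 10 of the 20 higher genes, in 3 of the 8 lower genes and in 2 of 7 between. Of the 9194 genes at that level with a window, 25.4% held a match and 10.04% an E-box, and an E-box stood in 2 of the 20 higher genes, 2 of the 8 lower genes and 2 of the 7 between. Counted by window, a match was in 16.6% of all 32851 windows of the RefSeq table and in 19 of the 53 windows of the members. The 16.6% also takes in genes that did not reach a mean of 1 CPM. Counted by gene, the share was 18.5% with such genes and 25.4% without them. A match of letters is a description of the window and says nothing of whether a factor binds there.

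Glucose enters T cells through facilitative transporters. Slc2a1, which encodes GLUT1, had 65.6 CPM in the freshly isolated and 198 CPM in the expanded library, 3.01-fold higher (2.84 to 3.20). Slc2a3, for the high-affinity transporter GLUT3, stood at 121 and 149 CPM, under 2-fold apart. Per length, Slc2a1 was above Slc2a3 in both libraries, and its share of the pair was 57.8% in freshly isolated and 77.1% in expanded cells.

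Hexokinases trap glucose by phosphorylation, and the leading isoform differed between the libraries. Hk2 (chromosome 6, 82725027 to 82774454, build GRCm38), the inducible form that can bind mitochondria, had 356 counts (16.5 CPM) before expansion against 5988 counts (285 CPM) after it. This is 17.2-fold higher (15.5 to 19.2). The widely expressed Hk1 stood at 172 and 261 CPM, 1.52-fold higher (1.46 to 1.58). Hk3, an isoform known from myeloid cells, went the other way, from 204 counts (9.48 CPM) to 13 counts (0.618 CPM), 15.3-fold lower (8.76 to 29.3). Macrophage markers were lower in the same library (1099 and 84.1 CPM in sum), and their part in the Hk3 value was not tested. Per length, Hk1 held 79.4% of the family in freshly isolated cells and 40.0% in expanded cells, and Hk2 held 10.5% and 59.8%.

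The next steps commit the sugar to glycolysis. Gpi1, the isomerase that makes fructose 6-phosphate, stood at 233 and 652 CPM, 2.80-fold higher (2.71 to 2.89). Phosphofructokinase, the main control point, is built from 3 kinds of subunit. Pfkp, the platelet type, stood at 181 and 525 CPM, 2.895-fold higher (2.79 to 3.003), and it led the family per length in both libraries (68.3% and 71.7%). Pfkl, the liver type, stood at 50.4 and 148 CPM, 2.94-fold higher (2.74 to 3.15). Pfkm, the muscle type, was nearly level at 14.4 and 15.6 CPM; its ratio of 1.08 (0.922 to 1.27) spans no difference, and its log2 fold was -0.05 with scaling by total count.

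Of the PFKFB enzymes, which make and remove the activator of phosphofructokinase, the 3 members of the set were at lower levels in expanded cells. Pfkfb3, whose kinase activity far exceeds its phosphatase activity, stood at 77.7 and 36.3 CPM, 2.14-fold lower with an interval of 1.96 to 2.33 that reaches below 2-fold. Pfkfb4 stood at 11.6 and 3.81 CPM, 3.05-fold lower (2.36 to 3.98). Pfkfb2 was under 2-fold apart, at 35.9 and 23.4 CPM. Pfkfb1, from the wider list described below, had few counts, 77 and 101 (3.58 and 4.80 CPM), and its ratio of 1.34 (0.989 to 1.83) spans no difference. Pfkfb2, Pfkfb3 and Pfkfb4 thus lay on the other side of no change from Pfkl and Pfkp, subunits of the enzyme they regulate, and Pfkfb1 did not.

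**Figure D2:**
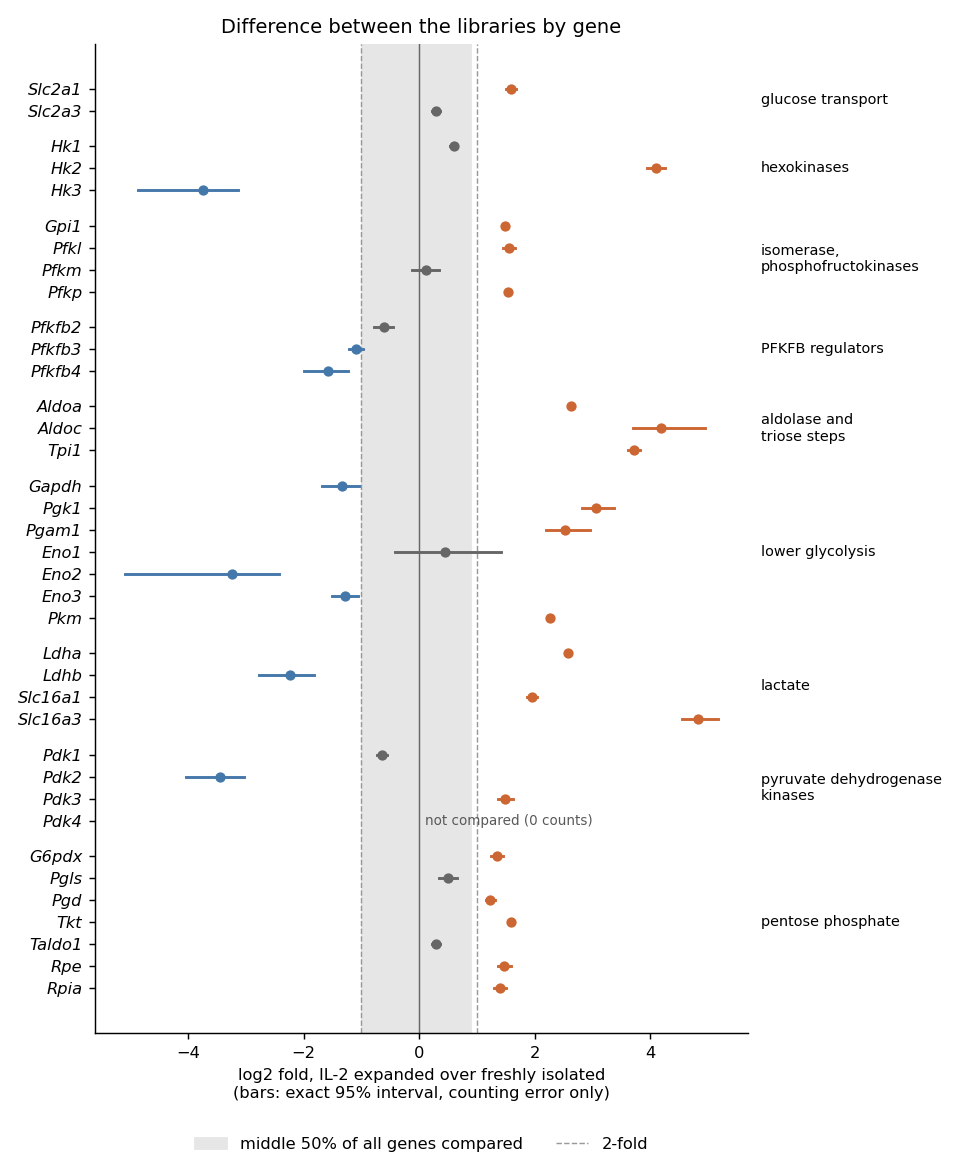
Log2 fold of each gene, expanded over freshly isolated (points, with a prior count of 2) with exact 95% counting intervals (bars). Orange genes are at least 2-fold higher, blue genes at least 2-fold lower, and the grey band holds the middle 50% of all genes compared; the orange values, from 1.23 for Pgd to 4.83 for Slc16a3, lie to its right.

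Aldolase and triose phosphate isomerase, which split the hexose and interconvert the products, were higher throughout. Aldoa (chromosome 7, 126795234 to 126800447), the form of muscle and most proliferating cells, had 265 and 1642 CPM, 6.19-fold higher (6.02 to 6.37). It had the highest level per length of the 37 genes in both libraries, 146 and 906 CPM per kilobase. Aldoc, the brain form, had 24 counts in freshly isolated cells and 462 in expanded cells, 19.7-fold higher (13.1 to 31.1), and still held under 1% of the family per length (0.841% in expanded cells). For Tpi1 (chromosome 6, 124810592 to 124814296) the levels were 37.4 and 492 CPM, 13.1-fold higher (12.2 to 14.1).

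From Gapdh to enolase, levels per length lay below those of Tpi1 (23.5 and 309 CPM per kilobase) and Pkm (75.4 and 362) in both libraries. The gap was narrow for enolase in freshly isolated cells, at 18.0 CPM per kilobase summed over its 3 genes. Gapdh, the dehydrogenase of this step, had 286 counts (13.3 CPM) against 109 counts (5.19 CPM) in the expanded library, 2.56-fold lower (2.05 to 3.23). Per length, Tpi1 just upstream was 2.63 times the level of Gapdh in freshly isolated and 88.5 times in expanded cells. Eno1, the enolase of most tissues, had 19 and 26 counts, too few to place (ratio 1.40, 0.746 to 2.68). Pgk1, the kinase that makes ATP after Gapdh, stood at 5.62 and 47.8 CPM, 8.50-fold higher (7.04 to 10.4). Pgam1, the mutase, stood at 3.16 and 18.7 CPM, 5.93-fold higher (4.58 to 7.79). These 4 genes have near copies elsewhere in the mouse genome.

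The sequence shared with other genes was measured as the share of all 50-base windows of a gene's coding transcripts (GENCODE M21) that recur exactly in a transcript of another gene elsewhere in the genome. It was 58.4% for Gapdh, in 222 other genes of which 213 are annotated as pseudogenes. It was 68.0% for Pgk1, 49.5% for Eno1 and 41.5% for Pgam1. Among the other 33 genes the highest values were 20.99% for Ldhb, 18.95% for Gpi1 and 18.4% for Pkm, and 21 genes had none. The part of shared sequence in the levels of Ldhb, Gpi1 and Pkm was not tested. Windows shared with a gene that overlaps the member were kept apart. They were found for 9 genes, with the highest shares for Pfkfb2 (24.97%), Rpe (18.7%) and Pfkp (15.4%), and 15 genes had no shared window of either kind. Reads that match several places are, with common settings of the tools named for these files, left out of counts. Their treatment here is not stated by the labels. In addition, the deposited span of Eno1b, a near copy, covers Eno1 and ends on the same base (chromosome 4, 150248873), and Eno1b had 12 and 15 counts. The levels and folds of Gapdh, Pgk1, Pgam1 and Eno1 are uncertain, and the part of shared sequence in them was not tested. Without these 4 genes, 18 of 32 were at least 2-fold higher (22.4% of all genes) and 7 lower (25.0%), with the same median of 1.37.

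**Figure D3:**
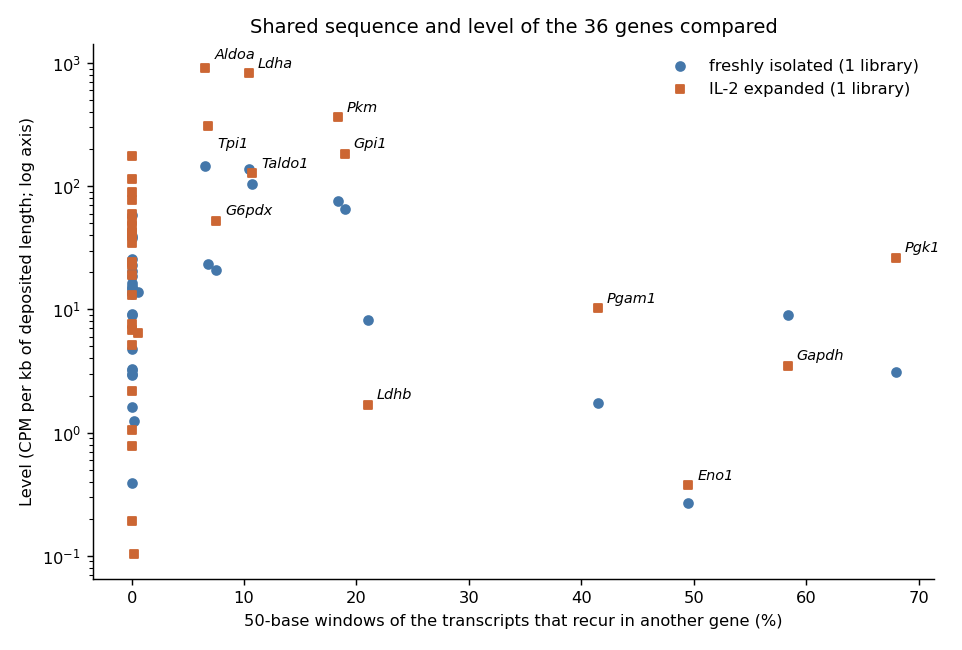
Level per length (log axis) of the 36 genes compared against the share of their 50-base windows that recur in another gene elsewhere in the genome, in freshly isolated (circles) and expanded cells (squares). Gapdh, Pgk1, Eno1 and Pgam1 stand apart at 41.5% to 68.0%, with levels of at most 26.4 CPM per kilobase in either library. Aldoa (6.57%) and Ldha (10.4%) reach 906 and 825 in expanded cells. Genes at 0% range in expanded cells from 0.190 (Hk3) to 176 (Tkt), and the part of shared sequence in the levels was not tested.

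The other enolases were lower in expanded cells. Eno3, the muscle form, stood at 26.3 and 10.8 CPM, 2.43-fold lower (2.08 to 2.85). Eno2, the neuronal form, had 75 and 6 counts, 12.2-fold lower (5.35 to 34.3). With so few counts for Eno1, shares within this family are not read here. Pkm (chromosome 9, 59656368 to 59679375), the pyruvate kinase that closes glycolysis, stood at 262 and 1258 CPM, 4.796-fold higher (4.66 to 4.94). Counts per gene do not separate its M1 and M2 splice forms.

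**Figure D4:**
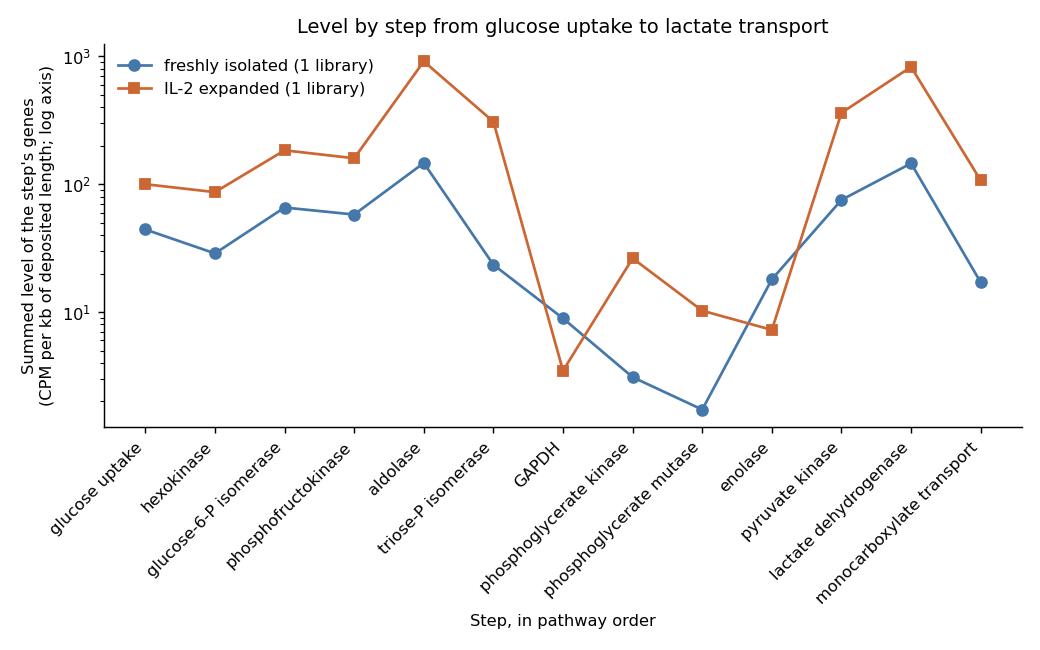
Summed level of the genes of each step (CPM per kilobase of deposited length, log axis) in pathway order, from glucose uptake to lactate transport, for the 2 libraries. Expanded cells lie above freshly isolated cells at every step except GAPDH (8.93 and 3.48) and enolase (18.0 and 7.26), and both lines dip between triose phosphate isomerase and pyruvate kinase, where the 4 genes with shared sequence lie.

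Summed by step and per length, the expanded library was above the freshly isolated one at 11 of 13 steps. The upper steps differed by similar amounts, with uptake 2.26-fold, hexokinase 3.01-fold, isomerase 2.80-fold and phosphofructokinase 2.76-fold higher. The steps after them differed by more, with aldolase 6.23-fold and triose phosphate isomerase 13.1-fold higher. Pyruvate kinase, lactate dehydrogenase and lactate transport followed at 4.796, 5.68 and 6.27-fold.

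Lactate genes moved apart by isoform. Ldha (chromosome 7, 46845804 to 46855627), whose subunit favours the reduction of pyruvate, stood at 264 and 1586 CPM, 6.01-fold higher (5.84 to 6.18). Ldhb, whose subunit favours the reverse reaction, had 230 and 46 counts (10.7 and 2.19 CPM), 4.88-fold lower (3.55 to 6.86). Per length, Ldha was 16.7 times Ldhb in freshly isolated and 489 times in expanded cells. Of the Ldhb windows of 50 bases, 20.99% recur in a pseudogene, and the part of this in its level was not tested.

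Both lactate transporters of the set were higher in expanded cells, and Slc16a7 from the wider list was lower. Slc16a3 (chromosome 11, 120948484 to 120959000), for the exporter MCT4, had 90 counts (4.18 CPM) before and 2558 counts (122 CPM) after expansion. At 29.1-fold higher (23.6 to 36.3) it had the largest fold of the 36 genes. Slc16a1, for MCT1, which carries lactate either way, stood at 68.4 and 265 CPM, 3.87-fold higher (3.65 to 4.10). The share of Slc16a3 in the pair was 9.52% and 44.2% per length, or 5.76% and 31.5% in plain counts. Slc16a7, for the high-affinity transporter MCT2, had 80 and 7 counts (3.72 and 0.333 CPM), 11.2-fold lower (5.17 to 28.7). Of the chaperones that bring these transporters to the surface, basigin (Bsg) stood at 144 and 401 CPM and embigin (Emb) at 497 and 307 CPM. Slc16a7, Bsg and Emb were picked from the wider list after their values were seen.

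The pyruvate dehydrogenase kinases differed in direction within the family. Pdk1, a known target of hypoxia-inducible factor, stood at 146 and 93.4 CPM, 1.56-fold lower (1.47 to 1.65). Pdk2, the form found in most tissues, had 435 and 37 counts (20.2 and 1.76 CPM), 11.5-fold lower (8.20 to 16.5). Pdk3 stood at 29.3 and 82.6 CPM, 2.82-fold higher (2.57 to 3.09). Per length, Pdk1 led in freshly isolated cells with 46.3% of the family, and Pdk3 led in expanded cells with 74.9%. In plain counts, which favour the longer Pdk1, it led in both libraries, with 74.6% and 52.5%.

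**Figure D5:**
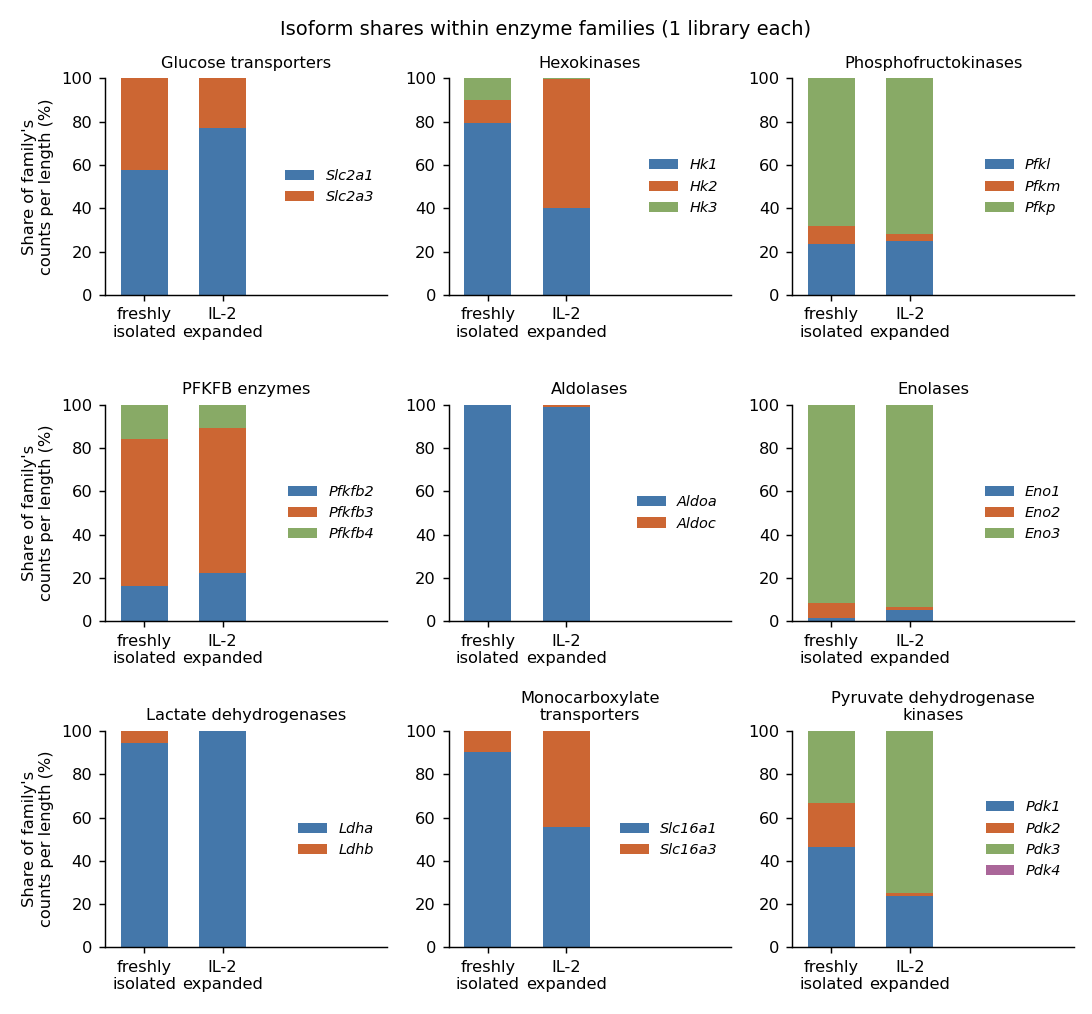
Share of each isoform in its family's counts per base of deposited length, in the freshly isolated and the expanded library (1 each). The most abundant isoform differs between the libraries for the hexokinases (Hk1, then Hk2) and the pyruvate dehydrogenase kinases (Pdk1, then Pdk3), and the enolase panel rests on a poorly counted Eno1.

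Of the 9 families, 2 had a different leading isoform in each library, the hexokinases and the pyruvate dehydrogenase kinases. The number was also 2 in plain counts, but there the hexokinases and the glucose transporters made it up. The hexokinase result was thus the one found on each scale, with Hk2 at 52.1% of plain counts in expanded cells (51.2 to 53.1).

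Pentose phosphate genes were higher as well, over a narrow range. Of 7 genes, 5 were at least 2-fold higher (22.4% of all genes) and none lower (25.0%). In the oxidative arm, which makes NADPH, G6pdx stood at 53.9 and 137 CPM, 2.54-fold higher (2.37 to 2.72). Pgd, the next dehydrogenase, stood at 84.3 and 198 CPM, 2.35-fold higher (2.22 to 2.48). The lactonase gene Pgls between them was under 2-fold apart, at 25.97 and 36.7 CPM. In the arm that rearranges sugars, Tkt, the transketolase, stood at 187 and 566 CPM, 3.03-fold higher (2.92 to 3.14). The epimerase gene Rpe (40.3 and 112 CPM) was 2.78-fold higher and the isomerase gene Rpia (47.4 and 125 CPM) 2.64-fold higher. Taldo1, for transaldolase, was nearly level at 131 and 161 CPM, a ratio of 1.22 (1.16 to 1.29). Per length it ranked 3 of the 37 genes in freshly isolated cells and 7 in expanded cells.

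Per length, the lower genes Eno2, Hk3 and Pfkfb4 were of low level in freshly isolated cells, above 13.8%, 24.1% and 25.6% of all genes compared. Some higher genes were low as well, such as Aldoc (5.15%), Slc16a3 (16.5%) and Hk2 (24.6%). The lower genes Ldhb (45.1%), Gapdh (47.4%), Pdk2 (47.5%), Pfkfb3 (60.0%) and Eno3 (64.7%) lay near or above the middle of all genes. Without regard to length, the freshly isolated levels of Hk3, Pfkfb4, Gapdh, Eno2, Ldhb and Pdk2 lay between 3.48 and 20.2 CPM. The other lower genes were Eno3 (26.3 CPM) and Pfkfb3 (77.7 CPM). Among the 30 genes whose mean reached 10 CPM, the count of higher genes was 20 (22.3% of all genes at that level) and that of lower genes was 3 (19.3%). Since this mean takes in both libraries, Aldoc, Pgam1, Slc16a3 and Pgk1, under 10 CPM in freshly isolated cells, passed through their expanded level alone. Ldhb, Pfkfb4 and Gapdh, above 10 CPM in freshly isolated cells, fell out. These counts thus depend on the differences themselves and do not show how level bears on them. Macrophage and B cell markers were lower in the same library, with the sums given above, and their part in the lower values was not tested. For 11 of the 37 genes the deposited span overlaps another gene with at least 50 counts, in 9 of these on the opposite strand. For Pgk1 and Pdk3 that gene is Timm8a1 alone (15 and 114 counts), whose deposited span covers 122932447 bases. Whether strand was used in counting is not stated by the labels. Slc16a3 overlaps Csnk1d, which had 5147 and 3939 counts, and Hk3 overlaps Unc5a, which had 255 and 93 counts.

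A wider list of pathway genes outside the 37, covering other transporters, pyruvate entry into mitochondria, gluconeogenesis, galactose use and redox shuttles, had 76 members in the table. Of these, 47 were compared, with a median log2 fold of 0.50. At least 2-fold higher were 16 (34.0%, against 22.4% of all genes) and lower 9 (19.1%, against 25.0%). The higher genes numbered 14 with scaling by total count, where Dld and Got1 fell below 2-fold, and 15 with the other 3 scalings, where Dld did. Furthest up were Pcx, for pyruvate carboxylase, at 3.76 and 35.4 CPM (9.41-fold, 7.47 to 12.0), and Galk1, the galactokinase, at 10.1 and 53.8 CPM (5.34-fold). Gpd2, the mitochondrial glycerol phosphate dehydrogenase, stood at 54.7 and 245 CPM, and Pck2, the mitochondrial form of phosphoenolpyruvate carboxykinase, at 23.8 and 88.1 CPM. Furthest down were Pgm2l1 (52.7 and 11.7 CPM, 4.51-fold lower) and Gpd1l (126 and 34.6 CPM, 3.65-fold lower), followed by Galt, the uridylyltransferase of galactose use (29.8 and 11.5 CPM), and the urate and sugar transporter gene Slc2a9 (20.2 and 7.66 CPM).

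Regulators of glycolytic genes were read as a list of 24, of which 22 were compared. At least 2-fold higher were 5 (22.7%), close to the 22.4% of all genes, so the count of higher regulators does not set the list apart. Lower was 1 (4.55%, against 25.0% of all genes), or 2 with each of the other 4 scalings. The factors furthest up were Mycn, of the MYC family, at 15 and 1736 counts (0.697 and 82.6 CPM), and Epas1, for HIF-2α, at 8.87 and 178 CPM (20.1-fold, 17.4 to 23.4). Hif1a, for HIF-1α, stood at 143 and 570 CPM, 3.97-fold higher (3.82 to 4.14), and Foxk2 at 62.0 and 171 CPM. Myc itself stood at 116 and 143 CPM. Furthest down were Mlxip, a glucose-sensing factor (220 and 80.3 CPM, 2.74-fold lower), and Arnt, the partner of the HIF α subunits (97.9 and 49.5 CPM, 1.98-fold lower). Txnip, an inhibitor of glucose uptake, stood at 599 and 342 CPM, and the kinase gene Stk11 at 144 and 107 CPM.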

How the data were processed

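The deposited table gave raw counts of reads by gene for the 2 libraries, with gene spans and a gene length. Per the submitters' processing notes, the tools were edgeR 3.28.1, HTSeq 0.6.0, STAR 2.6.0 and bcl2fastq 2.18.0.12, on build GRCm38 (mm10). What each tool was used for, its settings, the annotation, the use of strand, the handling of reads that match several places and the origin of the length are not given in the sources used here. Reads that match several places or overlapping genes may be left out or misassigned.

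Counts were scaled with TMM factors (1.06 for freshly isolated, 0.947 for expanded) from edgeR 4.0.16 in R 4.3.3. Log2 folds used a prior count of 2, and printed folds are plain ratios of CPM with exact conditional (Clopper-Pearson) 95% intervals. Since the reads carry no molecular identifiers, they may repeat a molecule, and intervals and floors reflect counting error alone. With 1 library per group no p-value was computed, and calls rest on the size of the fold. Coordinates are as deposited (1-based, GRCm38), and the spans of all 37 genes overlapped the RefSeq genes of GRCm38.p6. Windows of 50 bases came from GENCODE M21 transcripts, which do not list every copy in the genome. The fold calculation and the window search were tested on simulated data.

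The 37 genes and the other lists were chosen with earlier results of these data known. All 37 are named, with the 4 furthest up and the 4 furthest down of the wider and regulator lists among genes whose mean reached 10 CPM, in order of the interval bound closest to no change. Other genes named were chosen after their values were seen or stand as markers. The alternatives tried were other scalings (total count, DESeq2 1.42.0 size factors, upper quartile, total count less the top 50 genes of each library), other filters, other folds and a prior count of 0.5 or 5.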

Additional observations from a re-analysis of the deposited data

How the results depend on the processing

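No member changed its side of 2-fold under any of the scalings, prior counts or filters in which it was compared, and Pfkm was the 1 gene whose sign changed. The 20 higher and 8 lower members were also 20 and 8 with each scaling and prior count. Scaling by total count moved the median log2 fold of all genes by -0.16 and that of the members to 1.21, and the difference between these medians was 1.33 with either scaling. With a mean of at least 10 CPM the members' median was 1.49, 3 members were lower and 5 genes of the wider list were lower, since fewer genes are compared. With no filter, 15 genes of the wider list were lower. With a 4-fold limit, 9 members were higher and 4 lower, 3 genes of the wider list were higher and 3 lower, and 2 regulators were higher and 0 lower. With a 1.5-fold limit 4 regulators were lower. The lower regulators numbered 2 with scaling by total count, by DESeq2 size factors, by upper quartile or without the 50 most abundant genes, and 2 with no filter. With the interval required to lie beyond 2-fold, 20 members were higher and 7 lower. Leaving out the 4 genes with shared sequence, and taking lengths from GENCODE exons for the isoform shares, were chosen after seeing the data. No paired analysis was possible because each group has 1 library, and no library could be left out. Depth limits Eno1, Eno2, Hk3 and Aldoc, which had under 30 counts in at least 1 library.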

Other observations

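The wider list also covers the pyruvate dehydrogenase complex with its phosphatases and the redox shuttles, and these groups were formed after the values were seen. The mitochondrial pyruvate carrier genes Mpc1 (24 and 17 counts) and Mpc2 (21.8 and 35.8 CPM) are outside these groups. Of 8 genes of the pyruvate dehydrogenase complex and its phosphatases, 4 were at least 2-fold higher in expanded cells (22.4% of all genes) and none lower (25.0%), with a median log2 fold of 0.85. With each of the other 4 scalings the higher ones were 3, as Dld, at a log2 fold of 1.01, came to lie between 0.85 and 0.99. The lipoamide subunit genes Dlat (42.9 and 105 CPM), Dld (79.2 and 160 CPM) and Pdhx (12.2 and 29.1 CPM) were among the higher ones, as was the phosphatase gene Pdp2 (7.99 and 26.7 CPM), whose product reverses the action of the kinases. The subunits of the first enzyme of the complex were nearly level, with Pdha1 at 182 and 232 CPM and Pdhb at 77.9 and 67.3 CPM. Of 7 shuttle genes, 4 were higher and 2 lower, against the same shares of all genes, and 3 were higher with scaling by total count, where the log2 fold of Got1 was 0.95. Mdh2 (152 and 427 CPM), Got1 (48.8 and 106 CPM) and Got2 (38.4 and 106 CPM) of the malate and aspartate shuttle were higher. In the glycerol phosphate shuttle the mitochondrial gene Gpd2 was higher, and the cytosolic genes Gpd1l (126 and 34.6 CPM) and Gpd1 (47 and 4 counts) were lower. The phosphatase gene Tigar, whose product is a brake on the glycolytic side and not on the pentose branch, stood at 19.8 and 47.0 CPM. All these values come from 1 library per group and none was tested.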
